A study of Mus musculus with 6 samples.

Results

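Matricellular proteins and small leucine-rich proteoglycans were followed in mouse hearts that overexpress fatty acid synthase (FASN), the enzyme that makes palmitate. The set names 10 genes: Postn, Tnc, Sparc, Spp1 and Thbs1 of the matricellular proteins, and Dcn, Lum, Bgn, Fmod and Ogn of the proteoglycans. Members were all probe sets annotated to exactly 1 of these symbols. They came to 22 of the 45037 non-control probe sets and covered 9 of the 10 genes, out of 18193 genes with such a probe set. The annotation used here paired no probe set with Spp1, which encodes osteopontin, so that gene is not analysed here. A further probe set that carries Thbs1 together with another symbol was left out.

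The tissue was heart of male C57BL/6J mice, in 3 groups of 2 arrays. High-FASN hearts came from one transgenic line and low-FASN hearts from another. Both lines carry FASN behind the alpha-MHC promoter, which drives expression in cardiac muscle cells. B6 hearts came from control mice matched for age, although the tissue label calls all 6 samples transgenic heart. Because each FASN level is 1 line, the level and any other property of that line cannot be told apart. The labels do not state that the arrays of a group represent different animals, so p-values cover only array-to-array spread, and that spread may be technical.

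Matricellular proteins are secreted into the matrix without forming its fibres, and they bind cell receptors, growth factors and collagen. Many are scarce in the resting adult heart and are made there after injury, largely by fibroblasts. In the B6 hearts here, Sparc and Postn already had bright signals, averaging 5455 and 1456. Small leucine-rich proteoglycans have a core of leucine-rich repeats and, in most, sulfated sugar chains. They bind collagen fibrils and influence fibril thickness and spacing.

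Signals are linear intensities without a physical unit, and precision is limited by having 2 arrays a group. The Fasn probe set averaged 2186 ± 116 in high-FASN hearts, 471 ± 13.3 in low-FASN hearts and 200.3 ± 18.5 in B6 hearts (SD, n = 2 each), which follows the labels. Across tested probe sets, correlations were 0.986 to 0.99 within groups and 0.968 to 0.976 between them. The 5 cardiomyocyte markers summed to 110480 and 122701 in high-FASN hearts, 86865 and 87625 in low-FASN hearts, and 97414 and 102252 in B6 hearts. Spiked hybridization controls had median log2 differences of 0.0771 for high-FASN minus B6 hearts, -0.189 for low-FASN minus B6 hearts and 0.271 for high-FASN minus low-FASN hearts.

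Testing was restricted to probe sets whose mean over the 6 arrays reached 49.01, the median over non-control probe sets. This left 20 of the 22 member probe sets, with at least 1 for each of the 9 genes. Differences were taken on log2(signal + 16) with limma and called at a Benjamini-Hochberg adjusted p below 0.05 over all 22519 tested probe sets. Folds are on this scale too, and the pseudocount of 16 understates the differences of dim genes.

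In high-FASN hearts 9 member probe sets rose and 0 fell against B6 hearts, where 8.22% of all tested probe sets were called higher and 6.2% lower (14.4% in either direction). They belonged to Postn, Sparc, Bgn, Fmod and Ogn. In low-FASN hearts 7 rose and 0 fell, where 13.6% of all were called higher and 10.8% lower (24.4% in either direction). These belonged to Postn, Sparc, Lum, Fmod and Ogn. At an unadjusted limma p below 0.05 the counts were 10 higher and 0 lower in high-FASN hearts, and 8 higher and 2 lower in low-FASN hearts. The median difference of the 20 was 0.206 in high-FASN and 0.334 in low-FASN hearts, beside 0.0368 and 0.0187 over all tested probe sets. Both comparisons use the same pair of B6 arrays.

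Between the transgenic groups 5 member probe sets were higher and 1 lower in high-FASN hearts, where 9.64% of all were called higher and 8.85% lower (18.5% in either direction). The higher ones were all 3 Bgn probe sets with 1 of Dcn and 1 of Fmod, and the lower one was Postn. The median difference of all 20 was -0.0349, beside 0.00524 over all. Bright probe sets were called more often than probe sets in general, and 10 member probe sets of 6 genes lay in the brightest 5%, a limit chosen after the data had been seen. Of these, 7 rose and 0 fell in high-FASN hearts, where 15.1% of equally bright probe sets were called higher and 15.7% lower (30.9% in either direction). In low-FASN hearts 6 rose and 0 fell, where 12.8% were called higher and 29.2% lower (42% in either direction). Between the transgenic groups 4 were higher and 1 lower, where 29.1% were called higher and 12.7% lower (41.8% in either direction), which is near the background.

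**Figure D1:**
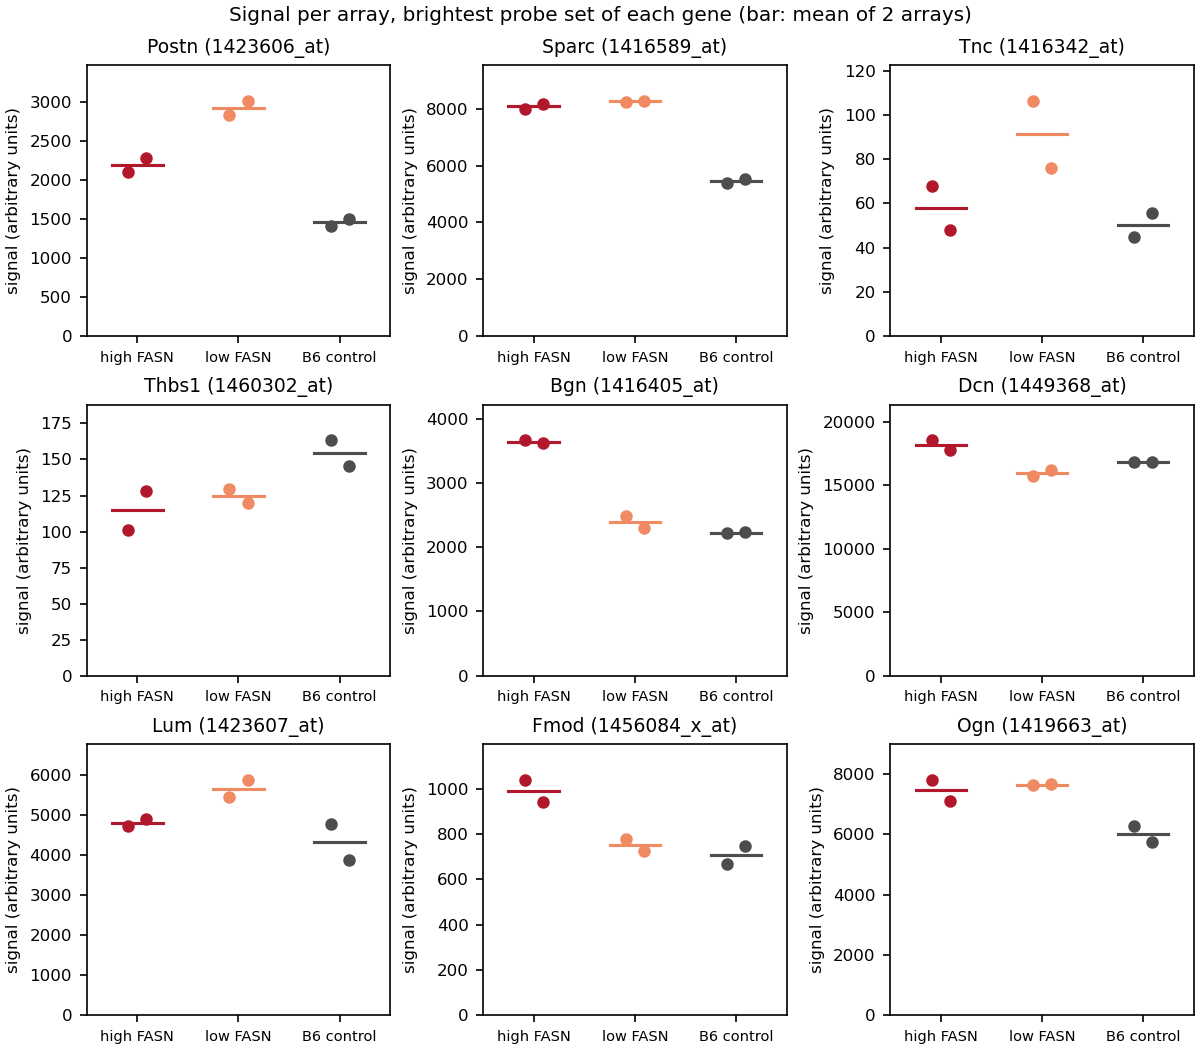
Signal per array (linear axis from 0, no physical unit) of the brightest probe set of each of the 9 genes; points are arrays and bars the mean of 2. Postn is highest in low-FASN hearts (2826 and 3016), and Bgn is highest in high-FASN hearts (3665 and 3617).

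**Figure D2:**
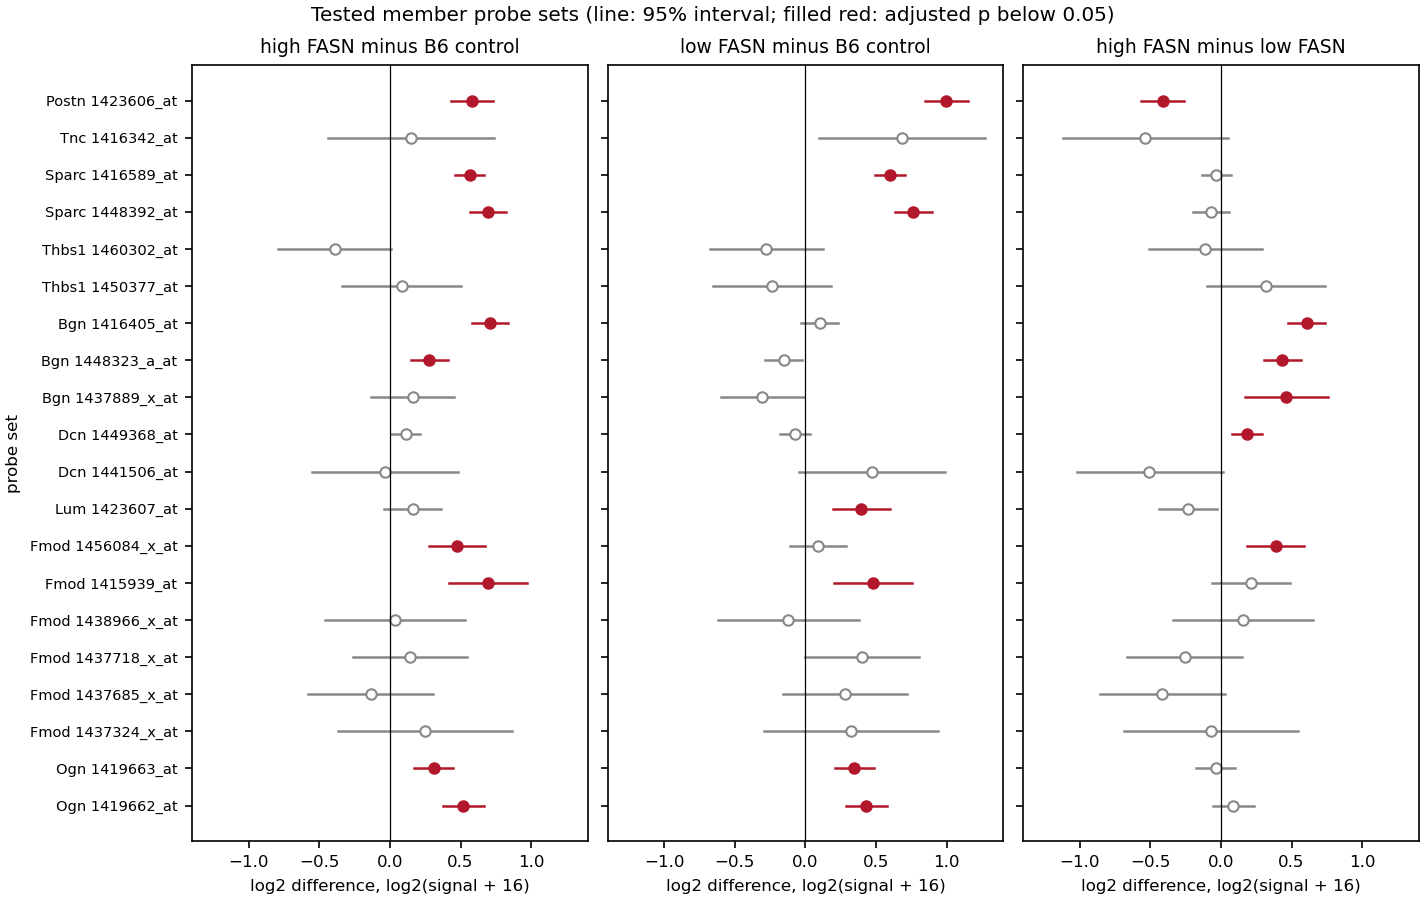
Log2 differences of the 20 tested member probe sets for high-FASN minus B6, low-FASN minus B6 and high-FASN minus low-FASN hearts, with 95% intervals from limma; filled points have an adjusted p below 0.05. There are 9 filled points in the first panel, 7 in the next and 6 in the last.

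Postn encodes periostin, a matricellular protein of activated fibroblasts that promotes collagen cross-linking. It read 2102 and 2279 in high-FASN hearts, 2826 and 3016 in low-FASN hearts, against 1417 and 1496 in B6 hearts. The groups did not overlap, with low-FASN hearts highest and B6 hearts lowest. Periostin RNA rose 1.498-fold in high-FASN hearts (log2 difference 0.58 ± 0.0668, SE; limma adjusted p = 0.000605). It rose 1.995-fold in low-FASN hearts (log2 difference 0.996, adjusted p = 1.72e-05). High-FASN hearts were lower than low-FASN hearts by a log2 difference of -0.41 (95% interval -0.563 to -0.263, adjusted p = 0.00334), a call lost without the intensity trend in the variance model (adjusted p = 0.0617). Since whole hearts were profiled, more cells of a type and more RNA per cell cannot be told apart in any result here.

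Tnc encodes tenascin-C, which is re-expressed where matrix is remodelled. Its tested probe set was dim and read 67.9 and 47.8 in high-FASN hearts, 106 and 76.0 in low-FASN hearts, against 44.7 and 55.7 in B6 hearts. Low-FASN hearts lay above the other groups, and high-FASN hearts overlapped B6 hearts. Neither difference from B6 hearts passed, at 0.15 for high-FASN (interval -0.438 to 0.736) and 0.69 for low-FASN hearts (interval 0.099 to 1.27, adjusted p = 0.0873). The other Tnc probe set read at most 9.81 and was not tested.

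Sparc encodes osteonectin, a collagen-binding matricellular protein involved in collagen processing. Its brightest probe set read 7989 and 8162 in high-FASN hearts, 8237 and 8283 in low-FASN hearts, against 5395 and 5515 in B6 hearts. Its other tested probe set read 3411 and 3194 in high-FASN hearts, 3467 and 3459 in low-FASN hearts, against 2074 and 1992 in B6 hearts. On both, all 4 transgenic arrays lay above both B6 arrays. Sparc rose 1.479-fold (adjusted p = 8.54e-05) and 1.619-fold (adjusted p = 8.56e-05) in high-FASN hearts. It rose 1.513-fold (adjusted p = 3.95e-05) and 1.698-fold (adjusted p = 3.13e-05) in low-FASN hearts. High-FASN minus low-FASN differences did not pass, at -0.03 (interval -0.137 to 0.0717) and -0.07 (interval -0.198 to 0.0599). A dim Sparc probe set, between 21.2 and 69.4, was not tested.

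Thbs1 encodes thrombospondin-1, which platelets release and which can activate latent TGF-beta. One probe set read 101 and 128 in high-FASN hearts, 129.7 and 119 in low-FASN hearts, against 163 and 146 in B6 hearts, so both transgenic groups lay below B6 hearts. The other read 105 and 114 in high-FASN hearts, 81.6 and 88.3 in low-FASN hearts, against 96.8 and 109 in B6 hearts, so there high-FASN hearts overlapped B6 hearts and low-FASN hearts lay below them. No difference from B6 hearts passed, the most negative being -0.39 in high-FASN hearts (interval -0.79 to 0.0105, adjusted p = 0.184). Of 3 platelet markers tested, 0 rose and 1 fell in high-FASN hearts, and 0 rose and 1 fell in low-FASN hearts, a different one each time. Pf4 stood at -0.48 in high-FASN (adjusted p = 0.00166) and -0.03 in low-FASN hearts (adjusted p = 0.801), Ppbp at 0.19 (adjusted p = 0.636) and -0.80 (adjusted p = 0.0303), and Itga2b, named after its values had been seen, at 0.17 (adjusted p = 0.682) and 0.31 (adjusted p = 0.385). Their part in the Thbs1 values was not tested.

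Bgn encodes biglycan, whose core protein carries chondroitin or dermatan sulfate chains and binds collagen. Its brightest probe set read 3665 and 3617 in high-FASN hearts, 2478 and 2294 in low-FASN hearts, against 2216 and 2227 in B6 hearts. The next read 3149 and 2966 in high-FASN hearts, 2225 and 2294 in low-FASN hearts, against 2568 and 2461 in B6 hearts. The dimmest of the 3, of a type whose probes can match other transcripts, read 3115 and 2420.0 in high-FASN hearts, 1773 and 2223 in low-FASN hearts, against 2307 and 2614 in B6 hearts. On all 3, high-FASN hearts lay above low-FASN hearts, while the distance to B6 hearts varied between probe sets.

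Biglycan RNA rose 1.634-fold in high-FASN hearts on the brightest probe set (log2 difference 0.71, adjusted p = 8.28e-05) and 1.214-fold on the next (0.28, adjusted p = 0.0127). The dimmest did not pass (0.16, interval -0.135 to 0.455). In low-FASN hearts 0 of 3 passed, at 0.10, -0.15 and -0.30, and the last 2 had an unadjusted limma p below 0.05. High-FASN hearts were higher than low-FASN hearts on all 3, by 0.61 (adjusted p = 0.000277), 0.43 (adjusted p = 0.00144) and 0.46 (adjusted p = 0.0375). With quantile normalization these differences were 0.61, 0.44 and 0.47.

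Single arrays decided some Bgn calls. The rise on the middle probe set was lost without B6 array 2 (adjusted p = 0.101) and with median centring (adjusted p = 0.053). On the dimmest, the difference between transgenic groups was lost without high-FASN array 1 (0.28, adjusted p = 0.164), low-FASN array 1 (0.30, adjusted p = 0.246), B6 array 1 (adjusted p = 0.0544) or B6 array 2 (adjusted p = 0.0541). The low-FASN fall passed on the middle probe set without high-FASN array 1 (adjusted p = 0.0497) or array 2 (adjusted p = 0.0494), and on the dimmest without high-FASN array 2 (adjusted p = 0.0498). Without the intensity trend the rise on the middle probe set (adjusted p = 0.118) and the difference between transgenic groups on the dimmest (adjusted p = 0.161) were lost.

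**Figure D3:**
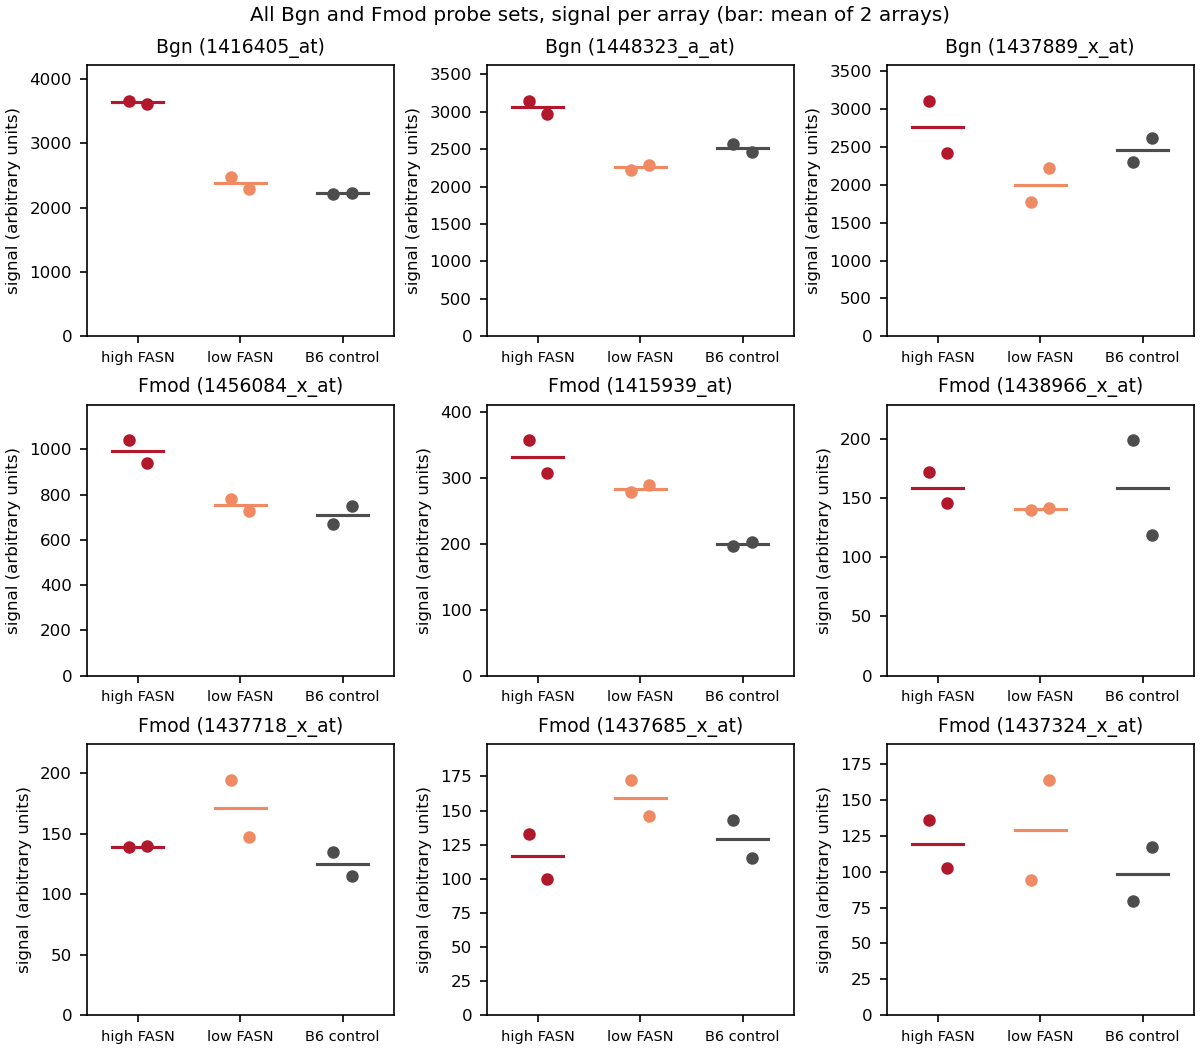
Signal per array (linear axis from 0, no physical unit) of the 3 Bgn and 6 Fmod probe sets; points are arrays and bars the mean of 2. Every Bgn panel places both high-FASN arrays above both low-FASN arrays, and the 4 dimmer Fmod panels hold no called difference.

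Dcn encodes decorin, a close relative of biglycan that binds collagen fibrils and growth factors. It was the brightest member and read 18576 and 17771 in high-FASN hearts, 15736 and 16241 in low-FASN hearts, against 16836 and 16810.2 in B6 hearts. The groups did not overlap, with high-FASN hearts highest and low-FASN hearts lowest. Neither difference from B6 hearts passed, at 0.11 for high-FASN (interval 0.00724 to 0.215, adjusted p = 0.147) and -0.07 for low-FASN hearts (interval -0.177 to 0.0302, adjusted p = 0.286). High-FASN hearts were higher than low-FASN hearts by 0.18 (adjusted p = 0.0229), but the sign turned with quantile normalization (-0.0358, adjusted p = 0.517) and the call was lost with cyclic loess (0.0560, adjusted p = 0.294). It was also lost without low-FASN array 1 (adjusted p = 0.201), low-FASN array 2 (adjusted p = 0.116) or B6 array 1 (adjusted p = 0.0501), and without the intensity trend (adjusted p = 0.194). Without high-FASN array 2 the rise against B6 hearts passed (0.14, adjusted p = 0.0416). A dim Dcn probe set, between 57.8 and 114, passed in no comparison.

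Lum encodes lumican, which regulates collagen fibril assembly. It read 4709.9 and 4898 in high-FASN hearts, 5431 and 5876 in low-FASN hearts, against 4769.6 and 3859 in B6 hearts. Low-FASN hearts lay above the other groups, and high-FASN hearts overlapped the widely spread B6 hearts. Lumican rose 1.316-fold in low-FASN hearts (0.40, adjusted p = 0.0113) and did not pass in high-FASN hearts (0.16, interval -0.04 to 0.365). The rise was lost without low-FASN array 2 (adjusted p = 0.101) or B6 array 2 (0.24, adjusted p = 0.068) and without the intensity trend (adjusted p = 0.0957), and without B6 array 1 high-FASN hearts passed too (0.31, adjusted p = 0.0461). High-FASN minus low-FASN hearts gave -0.23 (interval -0.436 to -0.0311, adjusted p = 0.104), which passed without B6 array 1 (adjusted p = 0.0386) or array 2 (adjusted p = 0.0382).

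Fmod encodes fibromodulin, which shares collagen binding sites with lumican. The brightest of its 6 probe sets, of the type whose probes can match other transcripts, read 1041 and 942 in high-FASN hearts, 780.4 and 727 in low-FASN hearts, against 670.3 and 748 in B6 hearts. The next read 358 and 308 in high-FASN hearts, 278 and 289.9 in low-FASN hearts, against 196 and 203 in B6 hearts. High-FASN hearts lay above B6 hearts on both. Fibromodulin rose in high-FASN hearts by 0.475 (adjusted p = 0.00756) and 0.69 (adjusted p = 0.00607). In low-FASN hearts the brightest stood at 0.09 (adjusted p = 0.52) and the next rose by 0.48 (adjusted p = 0.02). High-FASN hearts were higher than low-FASN hearts on the brightest (0.39, adjusted p = 0.016), and the next did not pass (0.21, interval -0.0635 to 0.49).

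The other 4 Fmod probe sets had a mean intensity of at most 171 in every group, and limma called 0 of 4 in any comparison, also at an unadjusted p below 0.05. The high-FASN rise of the brightest was lost without B6 array 1 (adjusted p = 0.0646) and without the intensity trend (adjusted p = 0.0683). Its difference between transgenic groups was lost without high-FASN array 1 (adjusted p = 0.0699), low-FASN array 1 (adjusted p = 0.0607) or low-FASN array 2 (adjusted p = 0.12), and without the intensity trend (adjusted p = 0.0849). The low-FASN rise of the next was lost without any 1 of the 4 arrays compared, with adjusted p between 0.0718 and 0.115.

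Ogn encodes osteoglycin, also called mimecan, which is abundant in heart and vessel wall. Its brightest probe set read 7812 and 7104 in high-FASN hearts, 7635 and 7654 in low-FASN hearts, against 6274 and 5753 in B6 hearts. The other read 4782 and 4214 in high-FASN hearts, 4252 and 4198 in low-FASN hearts, against 3132 and 3128 in B6 hearts. All 4 transgenic arrays lay above both B6 arrays on both. Osteoglycin rose by 0.31 (adjusted p = 0.0109) and 0.52 (adjusted p = 0.000962) in high-FASN hearts. It rose by 0.35 (adjusted p = 0.00369) and 0.43 (adjusted p = 0.00141) in low-FASN hearts. High-FASN minus low-FASN differences did not pass, at -0.04 (interval -0.178 to 0.103) and 0.09 (interval -0.0582 to 0.232), although the dimmer passed without high-FASN array 2 (0.18, adjusted p = 0.0436). The high-FASN rise of the brightest was lost without B6 array 2 (adjusted p = 0.1) and with median centring (adjusted p = 0.0547), and without the intensity trend it was lost in high-FASN (adjusted p = 0.126) and low-FASN hearts (adjusted p = 0.0663).

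RefSeq start windows of GRCm38.p6 were matched for 7 of the 10 members. The 250 bases before the start are shown for Sparc, Postn, Ogn and Fmod because at least 1 of their probe sets rose in both transgenic groups, and for Bgn because all of its probe sets differed between them. They lie at chr11:55420081-55420330 (minus strand), chr3:54359017-54359266 (plus strand), chr13:49607765-49608014 (plus strand), chr1:134037004-134037253 (plus strand) and chrX:73483351-73483600 (plus strand), each written 5′ to 3′ along its gene. Capitals mark matches, on either strand, to the motifs described after the sequences.
Sparc: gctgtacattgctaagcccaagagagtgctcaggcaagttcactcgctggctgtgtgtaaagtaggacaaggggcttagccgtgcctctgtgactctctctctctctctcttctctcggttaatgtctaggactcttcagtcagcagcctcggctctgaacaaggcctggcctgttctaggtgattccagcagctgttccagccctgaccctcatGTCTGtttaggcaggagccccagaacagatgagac
Postn: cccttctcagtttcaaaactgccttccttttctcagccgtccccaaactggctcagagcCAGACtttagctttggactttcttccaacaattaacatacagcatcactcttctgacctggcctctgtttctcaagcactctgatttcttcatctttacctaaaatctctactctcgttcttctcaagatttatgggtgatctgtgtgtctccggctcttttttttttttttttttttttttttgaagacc
Ogn: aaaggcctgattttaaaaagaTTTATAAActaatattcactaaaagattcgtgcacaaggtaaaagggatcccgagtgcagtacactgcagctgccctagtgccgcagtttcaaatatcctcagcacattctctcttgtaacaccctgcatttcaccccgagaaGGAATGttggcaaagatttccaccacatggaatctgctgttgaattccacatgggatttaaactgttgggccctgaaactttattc
Fmod: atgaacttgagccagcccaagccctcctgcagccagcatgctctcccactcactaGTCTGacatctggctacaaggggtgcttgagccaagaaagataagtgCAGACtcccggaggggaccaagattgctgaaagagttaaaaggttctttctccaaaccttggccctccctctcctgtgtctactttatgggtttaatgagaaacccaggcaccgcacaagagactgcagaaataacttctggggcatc
Bgn: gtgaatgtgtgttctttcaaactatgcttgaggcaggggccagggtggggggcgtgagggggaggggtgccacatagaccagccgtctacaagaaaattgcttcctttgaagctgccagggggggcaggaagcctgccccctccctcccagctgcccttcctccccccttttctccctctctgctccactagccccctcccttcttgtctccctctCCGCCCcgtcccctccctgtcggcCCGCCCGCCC
The share of G and C was 54% in Sparc, 40.4% in Postn, 42% in Ogn, 51.2% in Fmod and 64.4% in Bgn. The SMAD-binding motif CAGAC matched once in Sparc, once in Postn and 2 times in Fmod, 195 and 148 bases before the start on opposite strands, and 42.2% of all 32851 windows of this length hold it. The TATA box TATAAA matched in Ogn on both strands, overlapping, 229 and 227 bases before the start, and 12.4% of windows hold it. The TEAD site GGAATG matched in Ogn 86 bases before the start, and 12.6% of windows hold it. The GC box GGGCGG matched 3 times in Bgn on the opposite strand, within 34 bases of the start, and 32.7% of windows hold it. The AP-1 site TGANTCA, which 6.75% of windows hold, matched in none of the 5. These matches describe letters in the windows, not sites in use.

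Ogn, Lum, Dcn and Fmod lie in clusters of related genes, so their neighbours were set beside them on their brightest probe sets. Aspn, Epyc, Kera and Optc were named after their values had been seen. Ecm2, Aspn, Omd and Ogn follow each other in RefSeq's order on chromosome 13 with 0 protein-coding genes between them. Ecm2, a matrix protein with leucine-rich repeats, rose by 0.865 (adjusted p = 0.00381) in high-FASN and 1.03 (adjusted p = 0.000842) in low-FASN hearts. Omd, osteomodulin, averaged 167 ± 6.67 in high-FASN hearts, 171 ± 54.4 in low-FASN hearts and 83.3 ± 0.492 in B6 hearts (SD, n = 2 each) and rose by 0.88 (adjusted p = 0.0231) in high-FASN and 0.88 (adjusted p = 0.0143) in low-FASN hearts. The high-FASN call of Omd was lost without any 1 of the 4 arrays compared (adjusted p 0.0594 to 0.101), and the low-FASN call without low-FASN array 2 (0.58, adjusted p = 0.125), B6 array 1 (adjusted p = 0.0662) or B6 array 2 (adjusted p = 0.0652). Aspn, asporin, passed against B6 hearts in neither group on its brightest probe set (-0.44, adjusted p = 0.0691, and 0.21, adjusted p = 0.321), while its other probe set rose in low-FASN hearts (0.78, adjusted p = 0.00016). Aspn was lower in high-FASN than low-FASN hearts on both (-0.65, adjusted p = 0.0126, and -0.58, adjusted p = 0.0014).

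Dcn, Lum, Kera and Epyc follow each other on chromosome 10. Epyc, epiphycan, rose in low-FASN hearts (0.54, adjusted p = 0.042) and stood at 0.32 in high-FASN hearts (adjusted p = 0.236), and the difference between these groups did not pass (-0.22, adjusted p = 0.412). Epyc was dim, averaging 223 in low-FASN and 148 in B6 hearts. Its low-FASN call was lost without low-FASN array 2, B6 array 1 or B6 array 2. Optc, Prelp and Fmod follow each other on chromosome 1. Prelp, which anchors basement membranes to collagen, averaged 968 ± 57.5 in high-FASN hearts, 1215 ± 45.6 in low-FASN hearts and 679.6 ± 60.5 in B6 hearts (SD, n = 2 each) and rose by 0.50 (adjusted p = 0.00491) in high-FASN and 0.83 (adjusted p = 0.00019) in low-FASN hearts. Prelp was lower in high-FASN than low-FASN hearts (-0.32, adjusted p = 0.0285), a call lost without high-FASN array 2 (adjusted p = 0.0949), low-FASN array 1 (adjusted p = 0.171) or low-FASN array 2 (adjusted p = 0.0995). Without the intensity trend this call (adjusted p = 0.115), the high-FASN rise of Prelp (adjusted p = 0.0597) and that of Omd (adjusted p = 0.0762) were lost. Kera and Optc were too dim to be tested.

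Other matricellular genes moved in both directions. Of 21 measured, 15 were tested. In high-FASN hearts 6 rose and 1 fell (median 0.34), where 8.22% of all tested probe sets were called higher and 6.2% lower. In low-FASN hearts 6 rose and 1 fell (median 0.3), where 13.6% of all were called higher and 10.8% lower. The gene that fell in each was Ccn2, connective tissue growth factor, which TGF-beta is known to induce. It averaged 3212 ± 165 in high-FASN hearts, 3122 ± 26.5 in low-FASN hearts and 4912 ± 109.6 in B6 hearts (SD, n = 2 each), with log2 differences of -0.61 (adjusted p = 0.00016) in high-FASN and -0.65 (adjusted p = 6.64e-05) in low-FASN hearts. Its relative Ccn3 averaged 835 ± 18.6 in high-FASN hearts, 840.2 ± 34.5 in low-FASN hearts and 429.7 ± 23.5 in B6 hearts (SD, n = 2 each). Ccn3 rose by 0.93 (adjusted p = 0.000126) in high-FASN and 0.94 (adjusted p = 7.38e-05) in low-FASN hearts, on a probe set whose probes can match other transcripts. Thbs2, a thrombospondin, rose by 0.81 (adjusted p = 0.00136) in high-FASN and 0.88 (adjusted p = 0.000471) in low-FASN hearts on its brightest probe set, and its other 2 probe sets passed in neither. Fstl1, a glycoprotein related to Sparc, rose by 0.36 (adjusted p = 0.00479) in high-FASN and 0.71 (adjusted p = 7.46e-05) in low-FASN hearts. Fstl1 was lower in high-FASN than low-FASN hearts (-0.34, adjusted p = 0.00557), a call lost without low-FASN array 1 (adjusted p = 0.0504) or array 2 (adjusted p = 0.0571). Without the intensity trend both this call (adjusted p = 0.0798) and the high-FASN rise of Fstl1 (adjusted p = 0.0835) were lost.

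Of 10 other small leucine-rich proteoglycan genes measured, 7 were tested. In high-FASN hearts 4 rose and 0 fell (median 0.501), and in low-FASN hearts 5 rose and 0 fell (median 0.541). Over all tested probe sets 14.4% and 24.4% were called in either direction. The high-FASN count was 2 without high-FASN array 1, B6 array 1 or B6 array 2, and the low-FASN count 2 without low-FASN array 2, B6 array 1 or B6 array 2. Podn, podocan, rose in low-FASN hearts (0.51, adjusted p = 0.0211), a call lost without low-FASN array 2 (adjusted p = 0.169), B6 array 1 (adjusted p = 0.0761) or B6 array 2 (adjusted p = 0.0977).

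Of 17 receptor genes tested, 1 rose and 1 fell in high-FASN hearts (median 0.106), and 4 rose and 3 fell in low-FASN hearts (median 0.071). Over all tested probe sets 14.4% and 24.4% were called in either direction, so the high-FASN count is near the background. Without B6 array 2 the high-FASN count was 1. Itga8, an integrin chain that pairs with beta1 and binds tenascin-C and osteopontin, averaged 1231 ± 154 in high-FASN hearts, 1607 ± 47.1 in low-FASN hearts and 433 ± 10.4 in B6 hearts (SD, n = 2 each). It rose by 1.47 (adjusted p = 1.36e-05) in high-FASN and 1.85 (adjusted p = 2.87e-06) in low-FASN hearts. In low-FASN hearts Itgb1, the beta1 chain, rose by 0.41 (adjusted p = 0.00241) and Ddr2, a collagen receptor of fibroblasts, by 0.78 (adjusted p = 0.00397). Sdc4, the cell-surface proteoglycan syndecan-4, differed there by -0.58 (adjusted p = 0.00254), a fall. Egfr, Cd47 and Itga9 were named after their values had been seen. Egfr fell in high-FASN (-0.62, adjusted p = 0.00936) and low-FASN hearts (-0.60, adjusted p = 0.00633). In low-FASN hearts Cd47 fell (-0.31, adjusted p = 0.0101) and Itga9 rose (0.76, adjusted p = 0.00894).

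Enzymes that build the sugar chains of biglycan and decorin were tested for 14 of 19 measured genes. In high-FASN hearts 4 rose and 0 fell (median 0.0325), and in low-FASN hearts 4 rose and 0 fell (median 0.191). Over all tested probe sets 14.4% and 24.4% were called in either direction. Chst14, a dermatan sulfate sulfotransferase, averaged 325 ± 19.5 in high-FASN hearts, 281 ± 2.92 in low-FASN hearts and 179 ± 25.6 in B6 hearts (SD, n = 2 each) and rose by 0.81 (adjusted p = 0.00412) in high-FASN and 0.61 (adjusted p = 0.00915) in low-FASN hearts. The low-FASN call was lost without low-FASN array 1 (adjusted p = 0.0565), low-FASN array 2 (adjusted p = 0.0622) or B6 array 1 (adjusted p = 0.0659). Csgalnact1, which starts chondroitin chains, rose by 0.53 (adjusted p = 0.0359) in high-FASN and 0.79 (adjusted p = 0.00365) in low-FASN hearts. Its high-FASN call was lost without any 1 of the 6 arrays (0.48 to 0.59). The call was also lost with quantile normalization (adjusted p = 0.0551), median centring (adjusted p = 0.0512) and cyclic loess (adjusted p = 0.0538). The same held without a filter (adjusted p = 0.0682) and with the 4 compared arrays alone (adjusted p = 0.0766). Chsy1, which extends the chains, rose by 0.37 (adjusted p = 0.0157) in high-FASN and 0.38 (adjusted p = 0.00877) in low-FASN hearts. Without the intensity trend both calls were lost (adjusted p = 0.0966 and 0.0585). Its high-FASN call was also lost without high-FASN array 1 (0.28), B6 array 1 (0.39) or B6 array 2 (0.36). The low-FASN call of Chsy1 was lost without low-FASN array 1 (0.34) or B6 array 2 (0.36). Chst15, a chondroitin sulfotransferase, rose in high-FASN hearts (0.56, adjusted p = 0.0255) and stood at 0.07 in low-FASN hearts (adjusted p = 0.756). Its high-FASN call was lost without the intensity trend (adjusted p = 0.051) and without a filter (adjusted p = 0.0504). It was also lost without high-FASN array 1 (0.47), B6 array 1 (0.53) or B6 array 2 (0.59). The high-FASN count was 1 without high-FASN array 1 or B6 array 1 and 2 without B6 array 2, and the low-FASN count was 1 without low-FASN array 1 and 2 without array 2.

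**Figure D4:**
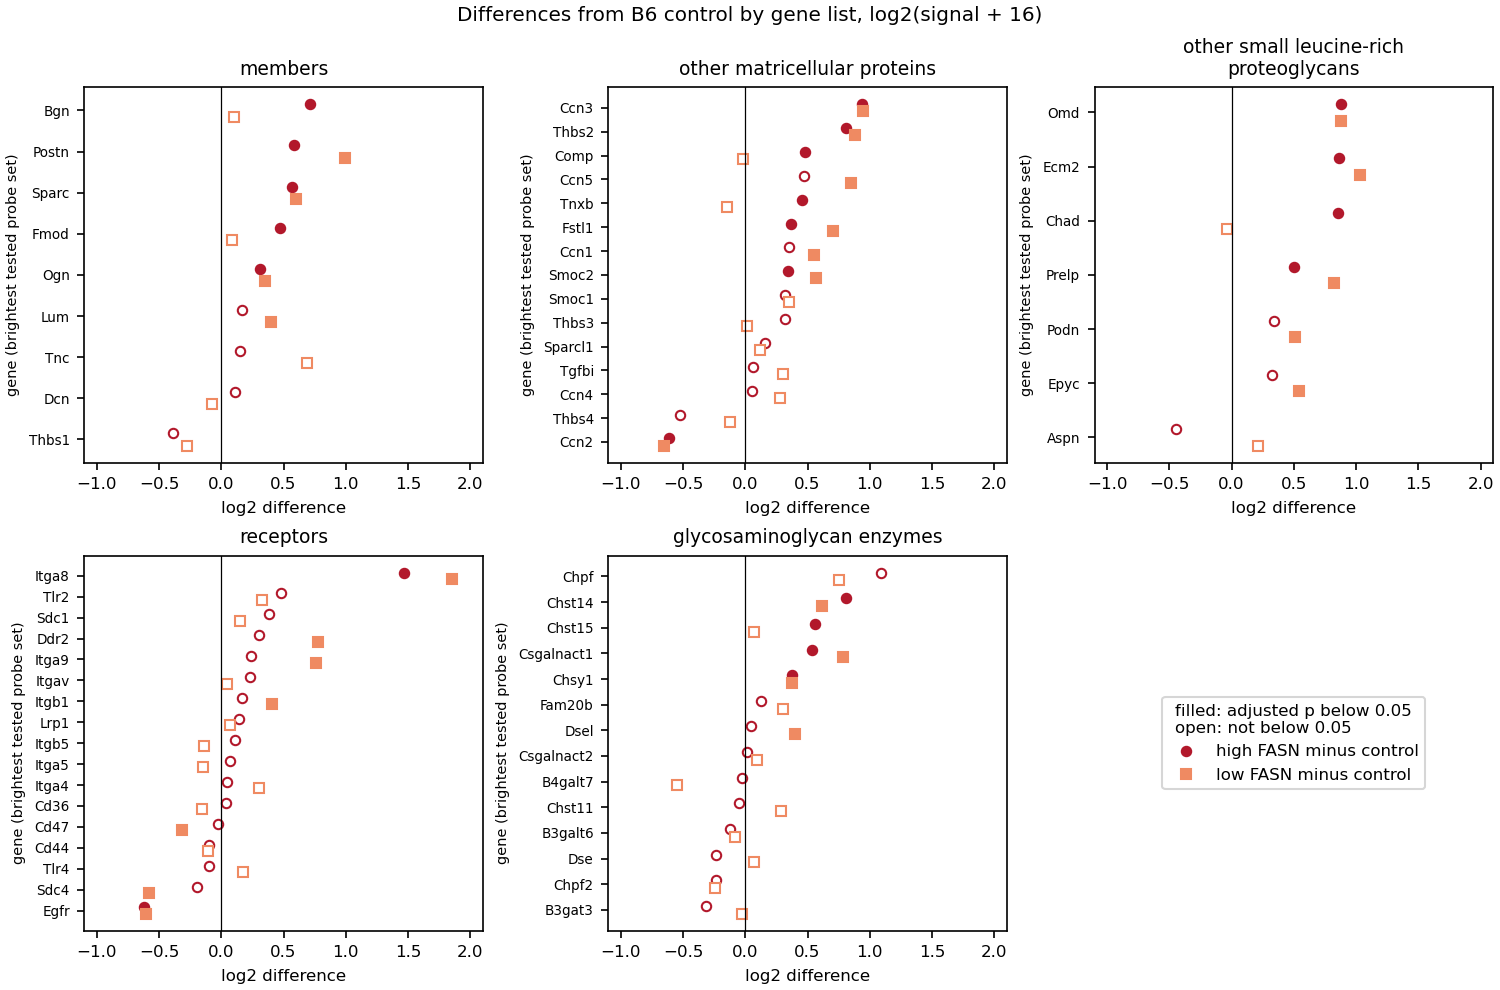
Log2 differences from B6 hearts of the tested genes of 5 lists, each on its brightest tested probe set; circles are high-FASN and squares low-FASN hearts, and filled symbols have an adjusted p below 0.05. Ccn2 lies at -0.61 and -0.65, and Itga8 at 1.47 and 1.85.

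Markers of fibroblasts, a main known source of these proteins, moved in the same comparisons. Of 10 tested, 7 rose and 1 fell in high-FASN hearts, where 8.22% of all tested probe sets were called higher and 6.2% lower. In low-FASN hearts 7 rose and 1 fell, where 13.6% of all were called higher and 10.8% lower. These shares also stand beside the marker counts that follow. Fibroblast markers summed to 47955 and 48508 in high-FASN hearts, 50124 and 50592 in low-FASN hearts, and 34794 and 35260.3 in B6 hearts, and 0 markers were at 0. Much of these sums came from Gsn and Col3a1. Gsn averaged 21923 in high-FASN, 20383 in low-FASN and 18870 in B6 hearts, on a probe set whose probes can match other transcripts. Col3a1 averaged 10135, 13372 and 4060. Col3a1, a fibrillar collagen chain, rose by 1.32 (adjusted p = 9.22e-07) in high-FASN and 1.72 (adjusted p = 1.76e-07) in low-FASN hearts. The collagen chains Col1a1 and Col1a2 rose by 0.90 (adjusted p = 0.000267) and 0.80 (adjusted p = 1.23e-05) in high-FASN hearts, and by 1.48 (adjusted p = 9.53e-06) and 0.93 (adjusted p = 4.3e-06) in low-FASN hearts. Dpep1 was the marker that fell, at -0.31 in high-FASN (adjusted p = 0.031) and -1.02 in low-FASN hearts (adjusted p = 3.96e-05). Mfap5, named after its values had been seen, stood at -0.18 in high-FASN hearts (adjusted p = 0.133) and rose by 0.60 in low-FASN hearts (adjusted p = 0.000404). The remaining non-collagen markers were also named after their values had been seen. In high-FASN and low-FASN hearts Pdgfra stood at 0.23 and 0.42, Tcf21 at 0.64 and 0.52, and Gsn at 0.22 and 0.11. Dpt stood at 0.36 and -0.03, and Ddr2 at 0.30 and 0.78. Smooth muscle markers summed to 11605 and 11899 in high-FASN hearts, 11392 and 11691 in low-FASN hearts, and 5466 and 5607 in B6 hearts, with 4 of 5 higher in high-FASN and 4 of 5 higher and 1 lower in low-FASN hearts. These sums came mainly from Acta2, which averaged 8623 in high-FASN, 9057 in low-FASN and 3701 in B6 hearts. The marker that fell in low-FASN hearts was Smtn (-0.43, adjusted p = 0.013), named after its values had been seen. Endothelial markers summed to 5885 and 6168 in high-FASN hearts, 6329.8 and 6382 in low-FASN hearts, and 4713 and 4884 in B6 hearts, with 3 of 5 higher in each.

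Macrophage markers summed to 8679 and 8682 in high-FASN hearts, 9608 and 9899 in low-FASN hearts, and 9517 and 9792 in B6 hearts, with 0 of 8 higher and 4 lower in high-FASN hearts, and 1 higher and 1 lower in low-FASN hearts. Mesothelial markers summed to 1017 and 1036 in high-FASN hearts, 1162 and 1232 in low-FASN hearts, and 551 and 602 in B6 hearts, with 2 of 4 higher in high-FASN and 3 of 4 in low-FASN hearts. Adipocyte markers summed to 3364 and 3698 in high-FASN hearts, 1805 and 1814 in low-FASN hearts, and 124 and 196 in B6 hearts, and both of those tested were higher in each. Of these, Cidec averaged 30.5 in B6 hearts and passed the filter only through the transgenic arrays, so the count partly reflects the filter. Airway and lung markers summed to 1665 and 1925 in high-FASN hearts, 217 and 255 in low-FASN hearts, and 137 and 152 in B6 hearts, with 2 of 4 higher in high-FASN and 1 of 4 in low-FASN hearts. The high-FASN sum came mainly from Scgb1a1 and Scgb3a2, which averaged 1147 and 513 there and 4.33 and 13.3 in B6 hearts, while Sftpc and Sftpb, named after their values had been seen, did not pass in high-FASN hearts (0.06, adjusted p = 0.943, and 0.08, adjusted p = 0.917). Scgb3a2 averaged 24.3 in low-FASN hearts and passed the filter only through the high-FASN arrays. Tendon and valve markers summed to 159 and 229 in high-FASN hearts, 191 and 197 in low-FASN hearts, and 77.3 and 187 in B6 hearts, and cartilage markers to 87.1 and 109 in high-FASN hearts, 94.5 and 125 in low-FASN hearts, and 93.0 and 144 in B6 hearts, and 1 of 4 was tested in each list. Of the 5 cardiomyocyte markers, 3 were higher and 0 lower in high-FASN hearts, and 0 higher and 2 lower in low-FASN hearts. Between the transgenic groups 4 of 5 were higher in high-FASN hearts (median 0.391). There 9.64% of all tested probe sets were called higher, and 29.1% of the brightest 5%. The part of these cell types in the members' differences was not tested.

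The genes most like Postn over the 6 arrays were ranked by Pearson's r on log2(signal + 16) between brightest tested probe sets of 11503 other genes. They were Nrep (0.998), Gask1b (0.998), Spon1 (0.998), Stambp (0.998), Hmgn3 (0.998), and 33 genes had an r above 0.99. With 6 arrays in 3 groups, such values mainly describe a shared order of the group means. Nrep read 1434 and 1577 in high-FASN hearts, 2311 and 2411 in low-FASN hearts, against 825 and 902 in B6 hearts. Spon1, which encodes a matrix protein, read 634 and 648 in high-FASN hearts, 717 and 735 in low-FASN hearts, against 544 and 562 in B6 hearts. Spon1 was picked for following Postn on these same arrays, so its group order and its calls are no separate evidence. Its differences were smaller than those of Postn. Spon1 rose in low-FASN hearts (0.38, limma adjusted p = 0.00685). It did not pass in high-FASN hearts (0.21, adjusted p = 0.115) or between the transgenic groups (-0.18, adjusted p = 0.155).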

How the data were processed

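Total RNA of heart tissue was labelled with biotin and hybridised to arrays, per the labels. The authors deposited one linear signal intensity for each probe set on each array. The submitters' processing notes name GCOS; the sources used here give no version, algorithm or scaling target. Every column had a 2% trimmed mean of 300.002, and no rescaling was applied.

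Of 45101 probe sets 64 were controls, and of the rest 34945 had 1 gene symbol, 932 several and 9160 no listing. Updating symbols through Entrez identifiers changed 0. limma 3.58.1 (R 4.3.3) fitted 3 group means to log2(signal + 16) of all 6 arrays, using eBayes with an intensity trend (residual degrees of freedom 3, prior 6.3), two-sided. The fit was also run on data simulated for 22519 probe sets, with means and spread taken from all 6 arrays. The simulated spread was smoothed by brightness, so equally bright probe sets shared the same spread, unlike in the real data. Changes were planted in the high-FASN columns. Against the B6 columns the fit called 32 of 50 planted changes of 0.5 (log2), 48 of 50 of 1, 44 of 50 of -1 and 50 of 50 of 2, with 7 further calls. These rates describe the simulated data.

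Members, lists and tests were chosen with earlier results of these data known. Named genes are the members, from each list up to 4 called genes with the smallest p against B6 hearts, the 5 genes most like Postn, and Fasn. Alternatives were 3 normalizations, 2 pseudocounts, 2 filters, no intensity trend, the compared arrays alone, the replicate block, each array left out, a minimum difference and 1 probe set per gene. Figures used matplotlib 3.10.9.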

Additional observations from a re-analysis of the deposited data

How the results depend on the processing

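Of the member calls, 6 of 9 in high-FASN hearts (both Sparc probe sets, Postn, the brightest Bgn, the second-brightest Fmod and the dimmer Ogn probe set) and 4 of 7 in low-FASN hearts (both Sparc, Postn and the dimmer Ogn probe set) passed in all 16 other fits that tested them, the minimum difference and the choice of 1 probe set per gene aside. Between the transgenic groups 2 of 6 did, both of Bgn. Member counts over these fits ran from 6 to 10, 5 to 9 and 2 to 7 for high-FASN against B6, low-FASN against B6 and high-FASN against low-FASN hearts, the order used from here on. Without the intensity trend 1228, 3595 and 1444 of all probe sets were called, against 3246, 5494 and 4165, and 2 members in the last comparison. A minimum log2 difference of 1 left 380, 626 and 326 probe sets, and 0 members in each. Leaving out single arrays gave 1370 to 3505, 2925 to 6492 and 1556 to 4154 probe sets, and 7 to 10, 5 to 9 and 3 to 7 members, where a lone array is assumed to vary like the others. The Dcn difference between transgenic groups was -0.0358 with quantile normalization; the cause was not tested. Deviations of same-numbered arrays correlated at 0.00151 to 0.0363, so no large shift shared by same-numbered arrays was seen. With 2 arrays a group this cannot tell whether same-numbered arrays were handled together. The replicate block gave 3376, 5646 and 4297 calls with 9, 7 and 6 members. Dim signal limits Tnc, Thbs1, 4 Fmod probe sets and Omd.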
